A study of Mus musculus with 24 samples.

Results

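The genes of MHC class II presentation were followed in mouse liver RNA. The set holds 9 of the 49315 genes in the count table, chosen by symbol with earlier results of these data known. It consists of the antigen-binding chains H2-Aa, H2-Ab1 and H2-Eb1, the invariant chain Cd74, the peptide-exchange subunits H2-DMa, H2-DMb1 and H2-DMb2, the class II transactivator Ciita and the protease Ctss (cathepsin S). Each symbol matched 1 row, and all 9 passed the filter on low counts that left 17216 genes for testing.

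Livers came from wild-type mice and from Mdr2-/- mice, which lack the canalicular phospholipid floppase encoded by Abcb4. Within each genotype, 6 tumour-bearing livers had received a transduction of AKT and YAP1, labelled as cholangiocarcinoma (CCA), and 6 control livers had received an empty transduction, so that all 4 groups of 6 were transduced. The profiled tissue was the tumour-bearing liver, not isolated tumour cells. Strain, age and sex were not given in the sources used here, and nothing says whether the libraries of a group came from separate animals beyond the word individual, so p-values measure the spread between these libraries.

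Total counts were 20976459 to 30288385 per library. Abcb4 itself was at 21.7 to 59.3 CPM (counts scaled to the library's effective size) in tumour-bearing and 23.8 to 41.6 CPM in control Mdr2-/- livers, against 165 to 361 CPM in tumour-bearing and 244 to 377 CPM in control wild-type livers, so every library fell on the side of its genotype label. On a principal component analysis of log2 CPM, wild-type tumour-bearing replicate 6 lay at -40.6 on the second component while the other 5 of its group lay at 9.82 to 37.8, and Mdr2-/- tumour-bearing replicate 1 lay at -7.70 on the first component while the other 5 lay at -60.4 to -41.0. Without both libraries the number of class II genes that passed the test was the same in all 5 comparisons described here (0, 5, 1, 9 and 8). Hepatocyte markers were abundant in every library, with summed levels of 22651 to 112202 CPM.

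Class II molecules display peptides from endosomes to CD4 T cells and are made mainly by dendritic cells, macrophages and B cells. Each molecule is a pair of an alpha and a beta chain. The pair assembles on the invariant chain, cathepsin S trims that chain to a short fragment, and H2-DM exchanges the fragment for a peptide. Transcription of the class II chains, the invariant chain and H2-DM depends on CIITA, which docks on the X and Y boxes of their promoters through the RFX, CREB and NF-Y factors, and interferon gamma induces Ciita.

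The promoter sequences below are shown because X and Y boxes are known from the promoters of class II chain and DM genes. Whether these boxes have a part in the levels of the 9 genes was not tested. The sequences come from RefSeq (build GRCm38.p6, windows of 250 bases before to 50 bases after each start), read on the gene's strand. Windows were given for 6 of the 9 genes: H2-Aa, H2-Eb1, H2-DMa, H2-DMb1, H2-DMb2 and Ctss. H2-Oa and H2-Ob, the chains of the DM inhibitor H2-O, are shown as relatives outside the set. Capitals mark the Y box letters ATTGG and, where present, a match to the loose X box pattern, which is AG, 2 bases of any kind, AC, 3 bases of any kind and TG.
H2-Aa (chr17:34287842-34287961, minus strand): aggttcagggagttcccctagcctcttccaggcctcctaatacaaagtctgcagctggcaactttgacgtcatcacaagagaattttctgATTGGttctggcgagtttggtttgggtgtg
H2-Eb1 (chr17:34305718-34305837, plus strand): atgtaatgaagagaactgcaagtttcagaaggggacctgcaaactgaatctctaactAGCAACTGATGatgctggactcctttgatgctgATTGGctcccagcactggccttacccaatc
H2-DMb1 (chr17:34153040-34153159, plus strand): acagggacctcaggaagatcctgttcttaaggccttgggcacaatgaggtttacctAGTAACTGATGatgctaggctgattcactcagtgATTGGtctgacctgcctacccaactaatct
H2-DMb2 (chr17:34145069-34145188, plus strand): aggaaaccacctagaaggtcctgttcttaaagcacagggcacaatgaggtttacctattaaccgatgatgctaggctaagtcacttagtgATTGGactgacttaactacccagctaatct
H2-Ob (chr17:34238758-34238877, plus strand): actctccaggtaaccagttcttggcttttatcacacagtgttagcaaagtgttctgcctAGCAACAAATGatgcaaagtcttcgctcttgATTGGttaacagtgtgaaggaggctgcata
H2-Oa (chr17:34092246-34092365, plus strand): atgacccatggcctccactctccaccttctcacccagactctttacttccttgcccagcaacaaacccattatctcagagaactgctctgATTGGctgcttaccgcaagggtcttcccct

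In H2-Eb1 and H2-DMb1 the X match stood before ATTGG with 22 and 23 bases between them, and in H2-Ob with 20. H2-DMb2 and H2-Aa held ATTGG without a match to the X pattern. The pattern is fixed and misses a stretch that departs from it in any base, so lack of a match does not show lack of an X box. In H2-Oa the X match began before the stretch shown, which opens with its last bases in lower case. More than 40 bases lay between that match and ATTGG. The Y box lay 48 bases before the start in H2-Aa, 59 in H2-Eb1, 61 in H2-DMb1 and 90 in H2-DMb2. Searched on both strands, ATTGG occurred in 37.4% of 32851 promoter windows and the loose X pattern in 14.8%. A stricter X pattern, which fixes the last 4 bases as GATG and overlaps the loose one, occurred in 0.968%, and the spaced pair on 1 strand with 10 to 40 bases between was in 0.377% (124 windows). The Ctss window and 1 of the 2 H2-DMa windows held none of these patterns. A match is a description of the sequence and shows no binding.

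The 9 genes spanned more than 2 orders of magnitude in abundance, and their order was nearly the same in every group. On the deposited TPM scale, which corrects for gene length, Cd74 was the most abundant (118 ± 26.1 in control and 234 ± 137 in tumour-bearing wild-type livers, 484 ± 50.9 in control and 516 ± 197 in tumour-bearing Mdr2-/- livers, SD, n = 6 in each). H2-Aa followed at group means of 86.3 to 363 TPM, H2-Ab1 at 49.0 to 212 and Ctss at 35.7 to 127. The DM genes were about an order of magnitude lower, H2-DMa at 4.62 to 16.9, H2-DMb1 at 2.40 to 11.9 and H2-DMb2 at 2.87 to 11.1 TPM. Ciita, a transcription factor, was the least abundant of the set at 0.797 to 2.91 TPM. Neighbours in this order often overlapped. Among Mdr2-/- controls, Cd74 and H2-Aa, H2-Aa and H2-Ab1, Ctss and H2-DMa, and H2-DMa and H2-DMb1 did not overlap between libraries, whereas all other neighbours did.

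**Figure D1:**
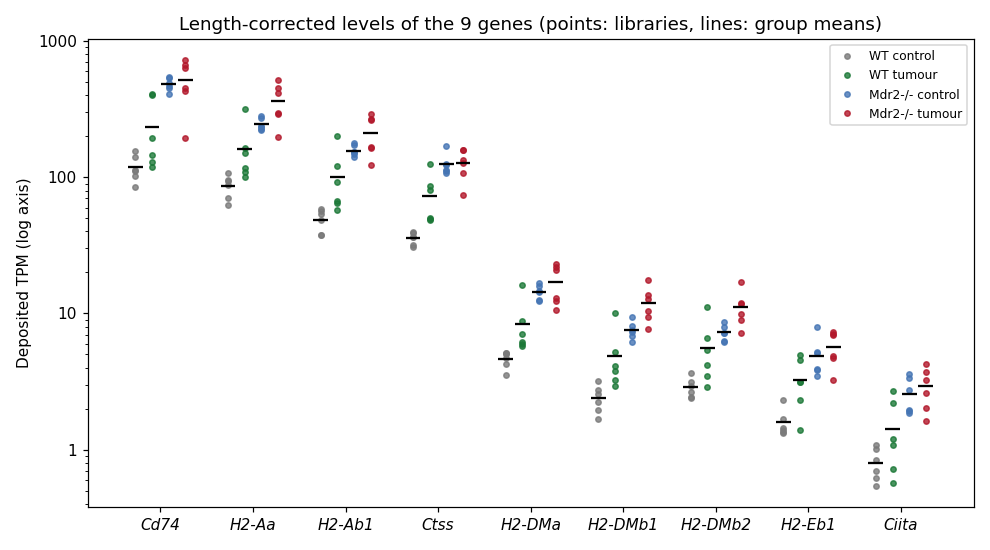
Deposited TPM (log axis) of each class II gene in each of 24 libraries, as points by group, with a line at each group mean. Cd74, H2-Aa, H2-Ab1 and Ctss lie above the DM genes, H2-Eb1 and Ciita in all 4 groups, and within each gene the wild-type control mean is the lowest of the 4.

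H2-Eb1, the beta chain of the E molecule, stood far below the A chains at 1.58 to 5.69 TPM on group means. Its ratio to H2-Ab1 on the TPM scale lay between 0.0207 and 0.0537 in every library. Its alpha partner appears in the table as the pseudogene H2-Ea-ps, with group means of 1.86 to 7.28 TPM. The reference strain C57BL/6 carries a disrupted E alpha gene, and the haplotype of these mice is not known here. H2-Eb1 and H2-Ab1 transcripts shared no identical stretch of 150 bases in the GENCODE vM21 transcripts. H2-DMb1 and H2-DMb2 were 95.5% identical over 1058 aligned bases, and 5.74% of the 150-base windows of H2-DMb1 were identical in H2-DMb2, so reads may be split between them and their separate values are uncertain.

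Loss of Mdr2 without tumour induction went with higher RNA of the whole set. In control livers all 9 genes rose in Mdr2-/- over wild type (edgeR quasi-likelihood test, Benjamini-Hochberg adjusted p under 0.05 over 17216 genes), where 26.2% of all tested genes rose and 50.5% passed in either direction. Their median log2 fold change was 1.21, against 0.03 for all genes, and ranged from 0.88 for H2-DMb2 to 1.58 for Cd74. The summed level of the 9 genes was 234 to 359 CPM in wild-type and 630 to 831 CPM in Mdr2-/- controls. In bulk tissue, more cells of a type and more RNA per cell cannot be told apart.

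Among the chains, H2-Aa was at 68.9 CPM in the lowest wild-type control library, 98.0 at the median and 118 in the highest, against 162, 200 and 264 CPM in Mdr2-/- controls. Every Mdr2-/- library was above every wild-type library, and the log2 fold change of H2-Aa was 1.07 ± 0.21 (SE; edgeR adjusted p = 0.000206). H2-Ab1, its beta partner, went from 36.0, 47.1 and 61.7 CPM to 88.4, 111 and 144 CPM, again without overlap (1.24 ± 0.22, edgeR adjusted p = 7.27e-05). H2-Eb1 was low in both groups. It was at 0.829, 1.05 and 1.81 CPM in wild-type and 1.79, 2.52 and 3.90 CPM in Mdr2-/- controls, where 1 wild-type library (replicate 2) reached the lowest Mdr2-/- libraries (1.16 ± 0.25, edgeR adjusted p = 0.000534). It was the 1 gene of the 9 whose groups overlapped. The other 8 did not, where 13.7% of all tested genes were higher without overlap.

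Cd74, the chaperone of the chains, had the widest gap. It was at 79.1, 94.7 and 131 CPM in wild-type controls and 267, 301 and 341 CPM in Mdr2-/- controls, so that the lowest Mdr2-/- library held more than 2 times the highest wild-type library. The fitted rise was 2.99-fold (1.58 ± 0.25, edgeR adjusted p = 1.65e-05). H2-DMa rose from 3.85, 4.47 and 5.48 CPM to 8.47, 10.05 and 12.998 CPM (1.20 ± 0.20, edgeR adjusted p = 3.88e-05). The DM beta genes also rose, H2-DMb1 by 1.21 ± 0.22 (edgeR adjusted p = 0.000109) and H2-DMb2 by 0.88 ± 0.22 (edgeR adjusted p = 0.00239). The H2-DMb2 estimate was the lowest of the 9.

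Ctss, the protease that trims the invariant chain, was tightly grouped in wild-type controls at 25.2, 29.1 and 33.0 CPM and stood at 62.9, 71.7 and 104 CPM in Mdr2-/- controls. Its log2 fold change of 1.36 ± 0.17 had the lowest adjusted p of the 9 (7.13e-07, edgeR). Ciita, the class II transactivator, was at 1.66, 2.40 and 3.51 CPM in wild-type and 4.54, 5.44 and 7.84 CPM in Mdr2-/- controls (1.21 ± 0.27, edgeR adjusted p = 0.000749). Its 2.31-fold rise was close to the 2.101-fold of H2-Aa and the 2.35-fold of H2-Ab1. The difference between these folds was not tested in this fit.

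**Figure D2:**
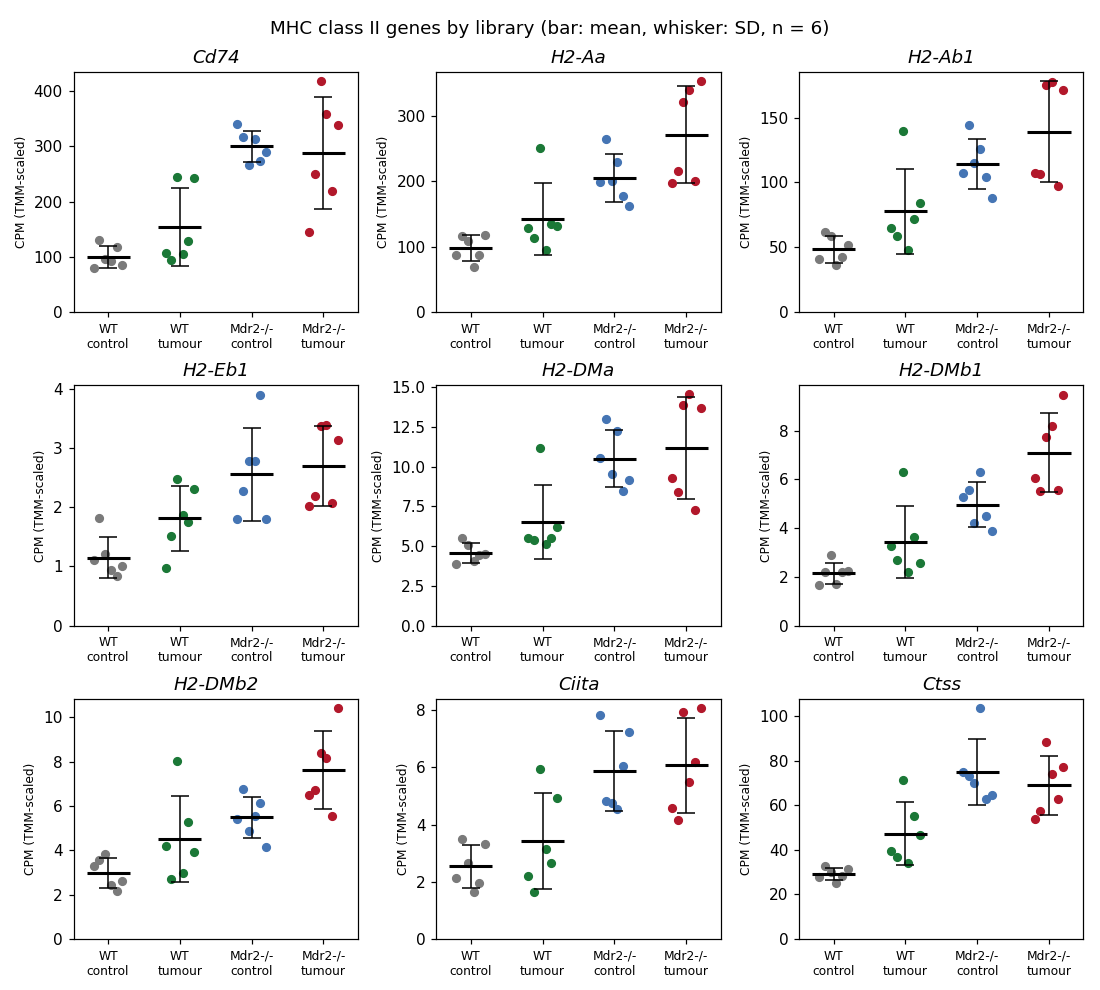
CPM after TMM scaling of each of the 9 class II genes, 1 panel per gene with its own axis from 0, for 6 libraries in each of 4 groups (points), with the group mean (bar) and SD (whisker). All Mdr2-/- control libraries lie above all wild-type control libraries for each gene except H2-Eb1, and 1 wild-type tumour-bearing library (replicate 3) lies at the top of its group for all 9.

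Monocyte and macrophage markers rose beside the class II genes in this comparison, where 26.2% of all tested genes rose and 24.3% fell. All 8 markers of monocytes and recruited macrophages rose, with a median log2 fold change of 2.15, led by Ms4a7 (3.82 ± 0.52, edgeR adjusted p = 2.66e-06) and Cx3cr1 (3.31 ± 0.31, edgeR adjusted p = 8.74e-09). Their summed level was 81.4 to 95.5 CPM in wild-type and 152 to 254 CPM in Mdr2-/- controls, with no marker at 0. Of the pan-leukocyte markers 3 of 4 rose (48.7 to 74.5 against 95.7 to 115 CPM summed), and of the dendritic cell markers 5 of 9 rose (10.7 to 14.0 against 22.2 to 26.6 CPM), among them Itgax at 2.84 ± 0.32 (edgeR adjusted p = 2.26e-07). Kupffer cell markers rose in 2 of 5 (226 to 303 against 226 to 386 CPM). B cell markers had 1 gene up and 1 down of 7 (8.45 to 15.3 against 8.85 to 14.9 CPM), and T cell markers rose in 3 of 6 (5.45 to 8.72 against 7.18 to 20.6 CPM). Cholangiocyte markers rose in 4 of 5 (51.1 to 131 against 56.9 to 307 CPM), and hepatocyte markers fell in 3 of 5 (84943 to 112202 against 60945 to 73955 CPM).

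The mean TPM of the chains H2-Aa, H2-Ab1 and H2-Eb1 was divided by the summed TPM of a marker list. This ratio was chosen after the values were seen and is given without a test. Per leukocyte marker it had medians of 2.55 in wild-type and 2.22 in Mdr2-/- controls. Per monocyte and macrophage marker the medians were 1.38 and 1.37. Per B cell marker they were 6.99 and 16.3, and per Kupffer cell marker 0.228 and 0.423. Dendritic cell markers gave 9.25 and 10.3, T cell markers 8.94 and 17.9, and sinusoidal endothelial markers 0.350 and 0.845. Cholangiocyte markers gave 0.706 and 0.977, and hepatocyte markers 0.000677 and 0.00179. What part each cell type has in the class II levels was not tested.

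Tumour induction in wild-type livers went with smaller rises. Of the 9 genes 5 rose (H2-Ab1, H2-Eb1, H2-DMb1, H2-DMb2 and Ctss) and none fell, where 16.9% of all tested genes rose and 28.4% passed in either direction. The median log2 fold change of the 9 was 0.61, against 0.03 for all genes, and all 9 estimates lay between 0.44 and 0.69. The summed level was 297 to 740 CPM in tumour-bearing livers, against 234 to 359 CPM in controls.

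Ctss was at 33.9, 43.2 and 71.5 CPM (lowest, median, highest) in wild-type tumour-bearing livers, above the 25.2 to 33.0 CPM of the controls in every library. It was the 1 gene of the set without overlap, where 7.27% of all tested genes were higher without overlap, and its log2 fold change was 0.69 ± 0.17 (edgeR adjusted p = 0.00280). H2-Ab1 was at 48.0, 68.2 and 140 CPM, against 36.0 to 61.7 CPM in controls (0.68 ± 0.22, edgeR adjusted p = 0.0207). Its 2 lowest tumour-bearing libraries (replicates 2 and 4) lay within the control range. H2-Eb1 (0.67 ± 0.25, edgeR adjusted p = 0.0468) and H2-DMb2 (0.60 ± 0.22, edgeR adjusted p = 0.0466) were just past the threshold, and H2-DMb1 had 0.68 ± 0.22 (edgeR adjusted p = 0.0234).

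The other 4 genes had estimates of the same sign that missed the threshold. H2-Aa was at 95.5, 130 and 252 CPM against 68.9 to 118 CPM (0.54 ± 0.21, edgeR adjusted p = 0.0513). Cd74 was at 93.5, 118 and 244 CPM against 79.1 to 131 CPM (0.61 ± 0.24, edgeR adjusted p = 0.0589), with replicates 3 and 6 both near 243 CPM and the other 4 within the control range. H2-DMa had 0.51 ± 0.20 (edgeR adjusted p = 0.0607) and Ciita 0.44 ± 0.27 (edgeR adjusted p = 0.239).

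The count of 5 rested on single libraries. It was 1 (Ctss) without wild-type tumour-bearing replicate 3, 8 without replicate 1, 3 without replicate 5, 2 without wild-type control replicate 1 or 4, and 3 without wild-type control replicate 5, replicate 3 or 4 of the Mdr2-/- controls, or replicate 2 or 6 of the tumour-bearing Mdr2-/- livers. The numbers in the library titles are under 2000 in 5 of 6 wild-type controls and over it in all 6 wild-type tumour-bearing livers, and with that range as a covariate the count was also 1 (Ctss, 0.73 ± 0.21, edgeR adjusted p = 0.0168). Within the range over 2000, the 1 wild-type control had 31.3 CPM of Ctss and 51.6 CPM of H2-Ab1, against 33.9 to 71.5 and 48.0 to 140 CPM in the tumour-bearing livers, which was not tested.

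Of the monocyte and macrophage markers 5 of 8 rose in the same livers, to a summed 97.7 to 159 CPM from 81.4 to 95.5 CPM. The shares over all tested genes were 16.9% up and 11.5% down. Leukocyte markers rose in 2 of 4 (65.5 to 119 CPM summed), dendritic cell markers in 3 of 9 (12.7 to 27.7 CPM) and Kupffer cell markers in 2 of 5 (282 to 420 CPM). Cholangiocyte markers rose in 4 of 5 (158 to 1356 against 51.1 to 131 CPM) and hepatocyte markers fell in 2 of 5 (44519 to 79124 against 84943 to 112202 CPM). None of 7 B cell and none of 6 T cell markers passed the test with edgeR. The chains per leukocyte marker had a median of 2.12, against 2.55 in controls. Per monocyte and macrophage marker the median was 1.32, against 1.38 in controls. The part of these cell types in the class II values was not tested.

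In Mdr2-/- livers tumour induction changed none of the 9 genes by the edgeR test, where 34.8% of all tested genes passed, 17.9% up and 17.0% down. None separated the groups completely, where 7.38% of all tested genes were higher without overlap. At an unadjusted p under 0.05 there were 2, H2-DMb1 (0.52 ± 0.21, edgeR adjusted p = 0.0584) and H2-DMb2 (0.48 ± 0.22, edgeR adjusted p = 0.0850), both with higher estimates. DESeq2 called 1 gene, and limma on log2 TPM called 1 with a pseudocount of 1 and 0 with 0.1. The median log2 fold change of the 9 was 0.09, against 0.04 for all genes. The summed level was 533 to 1045 CPM in tumour-bearing livers and 630 to 831 CPM in controls.

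H2-Aa, H2-Ab1, H2-DMa and Cd74 were spread more widely in tumour-bearing than in control Mdr2-/- livers (SD of H2-Aa, 74.3 against 36.9 CPM). H2-Aa was at 197, 201 and 216 CPM in replicates 1, 5 and 2 and at 321, 341 and 353 CPM in replicates 3, 4 and 6, against 162 to 264 CPM in controls. None of these 6 tumour-bearing libraries lay between 216 and 321 CPM. H2-Ab1 was at 97.1 to 107 CPM in the same 3 low libraries and 171 to 177 CPM in the same 3 high ones, and H2-DMa at 7.25 to 9.28 against 13.7 to 14.6 CPM. Log2 fold changes were 0.40 for H2-Aa and 0.28 for H2-Ab1 (edgeR adjusted p = 0.127 and 0.301). They were 0.09 for H2-DMa and 0.08 for H2-Eb1 (edgeR adjusted p = 0.736 and 0.816). Cd74 was at 145, 294 and 418 CPM (lowest, median, highest), with replicate 1 the lowest, against 267 to 341 CPM in controls, and its log2 fold change was -0.06 ± 0.24 (edgeR adjusted p = 0.872). Ctss was at 54.0, 68.3 and 88.5 CPM against 62.9 to 104 CPM (-0.12 ± 0.16, edgeR adjusted p = 0.583). Ciita was at 4.17, 5.83 and 8.07 CPM against 4.54 to 7.84 CPM (0.05 ± 0.26, edgeR adjusted p = 0.901).

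The count was 2 without wild-type tumour-bearing replicate 3, and 1 when either replicate 2 or 5 of the tumour-bearing Mdr2-/- livers, or replicate 4 of their controls, was left out. Scaling by total library size, which moved the median of all genes by 0.24 on the log2 scale, gave 3. Marker lists moved in different directions in these livers, where 17.9% of all tested genes rose and 17.0% fell. Cholangiocyte markers rose in 4 of 5 (1091 to 3946 CPM summed against 56.9 to 307 CPM), hepatocyte markers fell in 3 of 5 (22651 to 43174 against 60945 to 73955 CPM), sinusoidal endothelial markers fell in 2 of 5, and leukocyte markers had 2 up and 1 down of 4. Kupffer cell markers fell in 3 of 5 (165 to 470 CPM summed against 226 to 386 CPM), T cell markers rose in 2 of 6 (7.55 to 24.4 against 7.18 to 20.6 CPM), and none of the 8 monocyte and macrophage markers passed the edgeR test (160 to 232 against 152 to 254 CPM). The median of chains per leukocyte marker was 2.62 in tumour-bearing and 2.22 in control Mdr2-/- livers. Per monocyte and macrophage marker it was 1.77 and 1.37. Nuclear RNA genes took 4.599 to 7.95% of counts in tumour-bearing and 1.74 to 4.29% in control Mdr2-/- livers. The part of these in the class II values was not tested.

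When the tumour effects of the 2 genotypes were compared directly, Ctss passed the test. Its tumour effect was lower by 0.81 ± 0.23 on the log2 scale in Mdr2-/- than in wild-type livers (edgeR adjusted p = 0.0142), where 13.4% of all tested genes had a lower effect and 25.3% passed in either direction. The median of the 9 differences was -0.39, against -0.04 for all genes. The other 8 estimates were all negative, from -0.13 for H2-DMb2 to -0.67 for Cd74, and none passed with edgeR. So the tumour effects on the antigen-binding chains, the DM genes, Cd74 and Ciita were not shown to differ between genotypes. Ctss was called with each of the 24 libraries left out in turn, with adjusted p of 0.00776 to 0.0277. Without wild-type tumour-bearing replicate 3 the estimates of H2-Aa, H2-DMb1 and H2-DMb2 turned positive, at 0.09, 0.09 and 0.11.

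**Figure D3:**
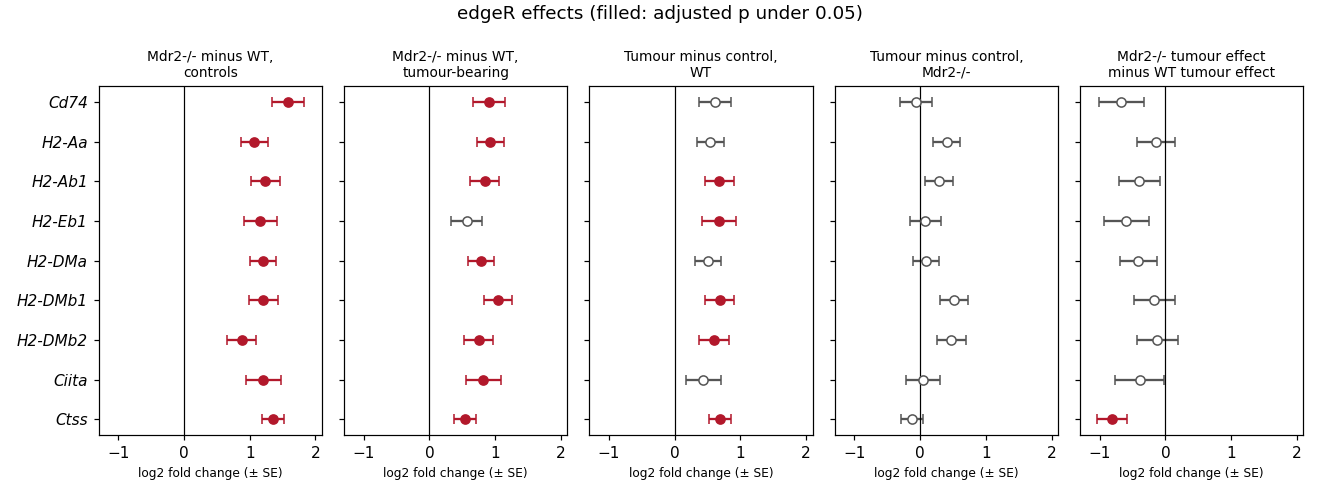
Log2 fold change (point) with SE (line) of each class II gene in 5 comparisons from 1 edgeR model of 24 libraries, filled where the adjusted p was under 0.05. All 9 points are filled for genotype in controls, 8 for genotype in tumour-bearing livers, 5 for tumours in wild type, 0 for tumours in Mdr2-/-, and 1 (Ctss) for the difference of the tumour effects.

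Between tumour-bearing livers, Mdr2-/- had higher RNA of 8 of the 9 genes, where 7.13% of all tested genes rose and 11.1% passed in either direction. The median log2 fold change was 0.82, against -0.02 for all genes. H2-DMb1 had the largest estimate (1.04 ± 0.21, edgeR adjusted p = 0.00241), at 2.21, 2.97 and 6.28 CPM in wild-type and 5.52, 6.92 and 9.47 CPM in Mdr2-/- livers. Of the chains, H2-Aa had 0.93 ± 0.21 (edgeR adjusted p = 0.00469) and H2-Ab1 0.84 ± 0.22 (edgeR adjusted p = 0.0127). Cd74 had 0.91 ± 0.24 (edgeR adjusted p = 0.0157) and H2-DMa 0.78 ± 0.20 (edgeR adjusted p = 0.0103).

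Of the other genes, 3 were also called, H2-DMb2 (0.75 ± 0.22, edgeR adjusted p = 0.0250), Ciita (0.82 ± 0.26, edgeR adjusted p = 0.0431) and Ctss (0.54 ± 0.16, edgeR adjusted p = 0.0318). H2-Eb1 was not called (0.57 ± 0.24, edgeR adjusted p = 0.131). None of the 9 genes separated the groups completely, where 2.30% of all tested genes were higher without overlap. For every gene it was wild-type replicate 3 that reached into the Mdr2-/- range, joined by replicate 6 for Cd74, Ciita and H2-Eb1 and by replicate 5 for Ctss. The count was 5 when Mdr2-/- replicate 3 or 6 or wild-type replicate 2 was left out, 4 without wild-type replicate 4, and 4 when only these 12 libraries were fitted.

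T cell markers rose in 5 of 6 between the same livers (4.16 to 10.7 against 7.55 to 24.4 CPM summed), among them Cd8a (3.04 ± 0.53, edgeR adjusted p = 0.000592). Monocyte and macrophage markers rose in 4 of 8 (97.7 to 159 against 160 to 232 CPM), leukocyte markers in 2 of 4 (65.5 to 119 against 110 to 131 CPM) and all 5 cholangiocyte markers rose (158 to 1356 against 1091 to 3946 CPM). Hepatocyte markers fell in 4 of 5 and sinusoidal endothelial markers in 5 of 5. Kupffer cell markers had 1 gene down of 5, and none of 7 B cell markers passed with edgeR. Their part in the class II difference was not tested.

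**Figure D4:**
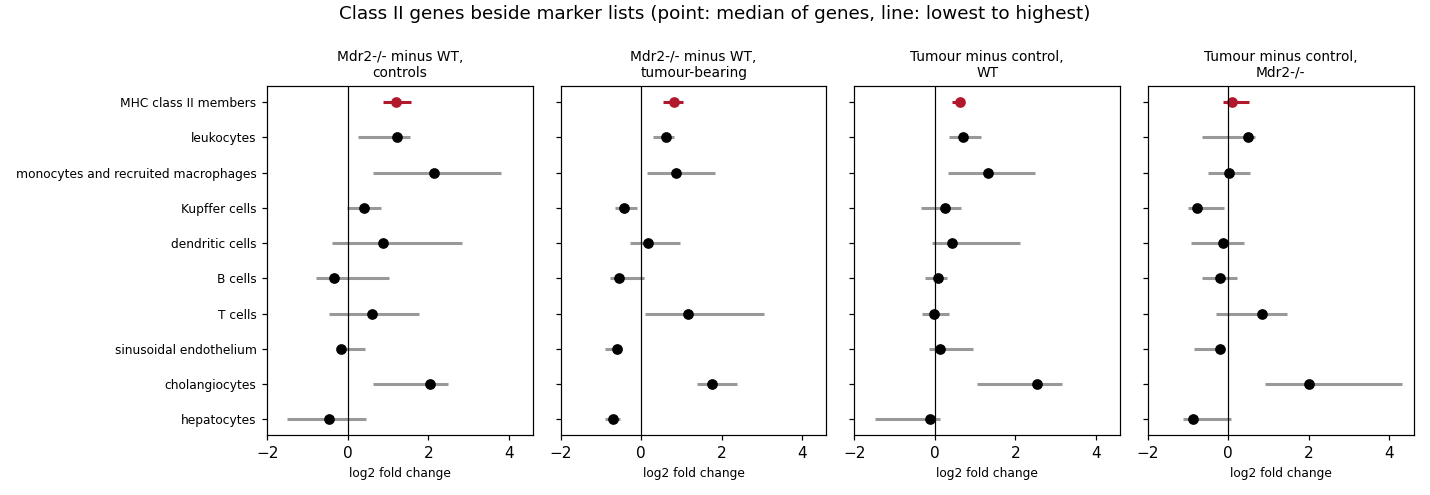
Median (point) and lowest to highest (line) log2 fold change of the 9 class II genes and of 9 marker lists in 4 comparisons. The class II median lies at 1.21, 0.82, 0.61 and 0.09 from left to right, beside 2.15, 0.86, 1.32 and 0.01 for monocytes and recruited macrophages.

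Ratios between the genes within a library do not depend on library scaling. In 28 comparisons of 7 ratios on the TPM scale, tested by 2-sided exact permutation of 6 against 6 libraries with Benjamini-Hochberg adjustment over the 28, 6 passed. Of these, 4 were for tumour against control in Mdr2-/- livers, where no single gene was called. The 4 share terms and are not independent. Cd74, Ctss and H2-DMa are each divided by the same mean of H2-Aa, H2-Ab1 and H2-Eb1, and H2-DMa also divides the DM beta genes. That mean is set almost wholly by H2-Aa and H2-Ab1, since group means of H2-Eb1 were 1.58 to 5.69 TPM.

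Relative to the mean of the 3 chains, Cd74 fell in Mdr2-/- tumour-bearing livers, from a log2 ratio of 1.83 ± 0.23 in controls to 1.36 ± 0.29 (SD, n = 6; exact permutation p = 0.00433, adjusted 0.0364). Replicate 1 had the lowest ratio of all libraries, and the other 5, at 1.28 to 1.66, also lay below the control mean. Ctss fell relative to the chains in the same comparison, from -0.14 ± 0.24 to -0.58 ± 0.21 (SD, n = 6; exact permutation p = 0.00433, adjusted 0.0364). On a linear scale the mean Ctss level went from 0.921 to 0.674 of the chain mean. H2-DMa fell relative to the chains by 0.27 (exact permutation p = 0.00649, adjusted 0.0364), while the summed DM beta genes rose by 0.43 relative to H2-DMa (exact permutation p = 0.00649, adjusted 0.0364).

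The 2 remaining ratios concerned genotype. H2-Aa relative to H2-Ab1 was lower in Mdr2-/- than in wild-type controls, at 0.65 ± 0.05 against 0.82 ± 0.12 (SD, n = 6; exact permutation p = 0.00216, adjusted 0.0364, the smallest p that 6 against 6 allows). Ctss relative to the chains was lower in Mdr2-/- than in wild-type tumour-bearing livers by 0.35 (exact permutation p = 0.00866, adjusted 0.0404). Ciita relative to the chains differed by -0.29 to 0.09 over the 4 comparisons, with none called and the lowest exact permutation p at 0.288 (adjusted 0.504). The ratio of H2-Eb1 to H2-Ab1 also passed in none of the 4, with the lowest exact permutation p at 0.210 (adjusted 0.452). Among the Mdr2-/- libraries, no ratio passed when control replicate 4 or 6 or tumour-bearing replicate 2, 4 or 6 was left out, and 3 passed without control replicate 2 or tumour-bearing replicate 5.

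**Figure D5:**
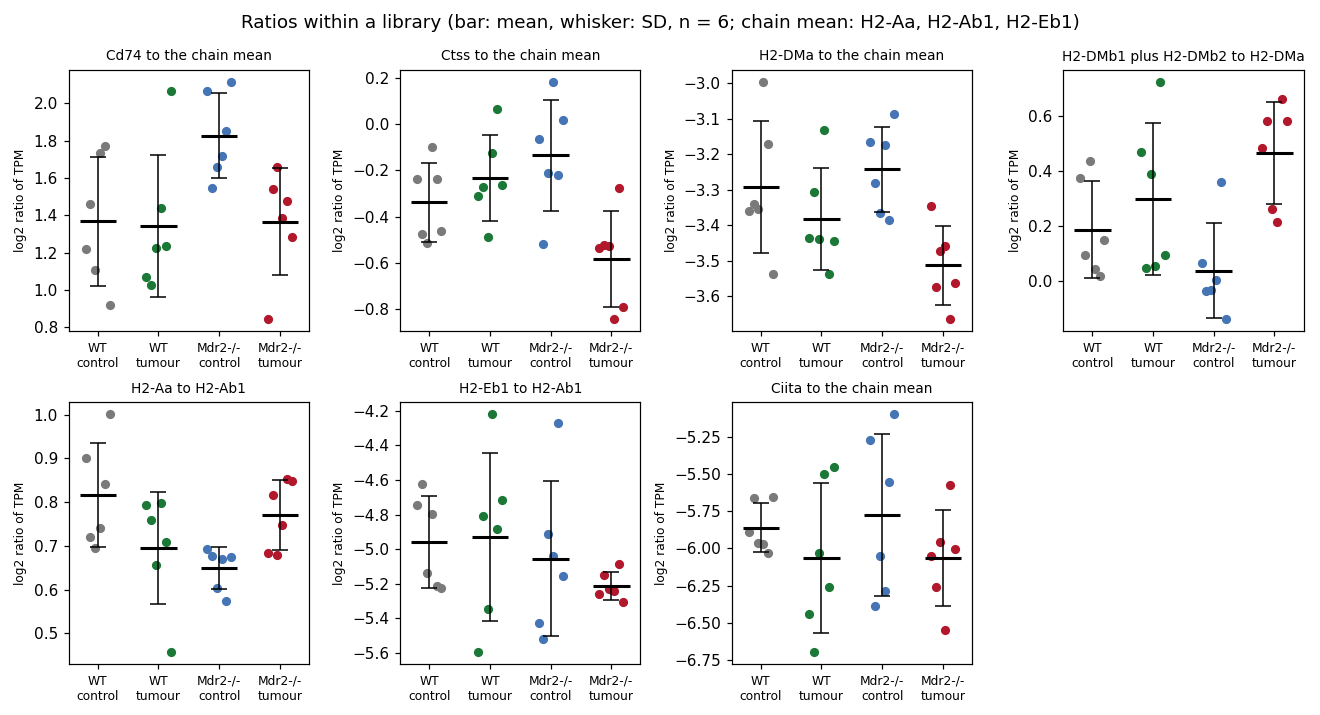
Log2 ratios of TPM within each library (points) for the 7 ratios between class II genes in 4 groups of 6 libraries. Cd74, Ctss and H2-DMa relative to the chain mean lie lower in Mdr2-/- tumour-bearing than in Mdr2-/- control livers, and the summed DM beta genes relative to H2-DMa lie higher.

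Of 11 listed class II relatives and promoter factors, 10 were tested (H2-Eb2 was not). In controls, Mdr2-/- against wild type gave 2 up (Rfx5 1.08 ± 0.29, edgeR adjusted p = 0.00315, and Nfya) and 2 down (Nfyb -0.76 ± 0.14, edgeR adjusted p = 0.000128, and Creb1), with a list median of 0.30. Of all tested genes, 26.2% rose and 24.3% fell in that comparison. Rfx5, the DNA-binding subunit of RFX, fell with tumours in Mdr2-/- livers (-1.06 ± 0.28, edgeR adjusted p = 0.00711), as did its partner Rfxap (-0.57 ± 0.18, edgeR adjusted p = 0.0197) and Nfyc, while H2-Ea-ps rose (0.75 ± 0.28, edgeR adjusted p = 0.0400). With tumours in Mdr2-/- livers, 17.9% of all tested genes rose and 17.0% fell. In wild-type livers tumours gave 1 call, Creb1, which was down, where 11.5% of all tested genes fell. H2-Ob rose in Mdr2-/- over wild-type tumour-bearing livers (0.63 ± 0.19, edgeR adjusted p = 0.0314), with group means of 1.14 and 1.76 CPM. H2-Oa, its alpha partner, passed in none of the 5 comparisons and was at group means of 0.355 to 0.662 CPM.

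Of 11 endosomal processing genes, 7 rose with loss of Mdr2 in controls and 1 fell (median 0.51), where 26.2% of all tested genes rose. The largest rises were those of Ifi30, the thiol reductase that unfolds antigens (1.30 ± 0.18, edgeR adjusted p = 3.81e-06), and of Cst3, a cathepsin inhibitor (0.97 ± 0.13, edgeR adjusted p = 3.07e-06). Tumours in wild-type livers raised 5 and lowered 1, where 16.9% of all tested genes rose and 11.5% fell. Ifi30 was at 0.82 ± 0.18 there (edgeR adjusted p = 0.00139). Tumours in Mdr2-/- livers lowered 4 of the 11, among them the cathepsin genes Ctsz (-0.94 ± 0.14, edgeR adjusted p = 6.64e-05) and Ctsb (-0.48 ± 0.10, edgeR adjusted p = 0.00148), and raised March1 (0.91 ± 0.26, edgeR adjusted p = 0.0102), a ubiquitin ligase that removes class II from the cell surface. With tumours in Mdr2-/- livers, 17.0% of all tested genes fell and 17.9% rose. The tumour effects differed between genotypes for 6 of the 11, all lower in Mdr2-/-, where 13.4% of all tested genes had a lower effect. Among them was Ifi30 at -1.18 ± 0.25 (edgeR adjusted p = 0.00211). Between tumour-bearing livers Cst3 was the 1 gene called (0.54 ± 0.13, edgeR adjusted p = 0.00817), where 7.13% of all tested genes rose.

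In interferon gamma signalling, Ifng itself was below the filter, with at most 9 counts in any library. Of the 7 tested genes 3 rose with loss of Mdr2 in controls, where 26.2% of all tested genes rose. They were the receptor chains Ifngr1 and Ifngr2 and the factor Irf1 (0.72 ± 0.14, edgeR adjusted p = 0.000154). Irf1 (0.60 ± 0.14, edgeR adjusted p = 0.00536) and Ifngr1 (0.56 ± 0.13, edgeR adjusted p = 0.00615) rose in Mdr2-/- over wild-type tumour-bearing livers. Tumours raised Ifngr1, Ifngr2 and Socs1 in wild-type livers, where 16.9% of all tested genes rose.

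Of the costimulatory and T cell genes 7 of 9 were tested. Cd80, Cd40 and Icosl, which antigen-presenting cells display beside class II, rose with loss of Mdr2 in controls, by 1.79 ± 0.39, 1.53 ± 0.33 and 1.77 ± 0.18 (edgeR adjusted p = 0.000576, 0.000568 and 3.41e-08). Of all tested genes, 26.2% rose in that comparison. The same 3 genes rose with tumours in wild-type livers, where 16.9% of all tested genes rose. None of the 7 passed the edgeR test for tumours in Mdr2-/- livers, where 34.8% of all tested genes passed. The tumour effect on Cd80 was lower in Mdr2-/- than in wild-type livers by 1.75 ± 0.52 (edgeR adjusted p = 0.0174) and that on Icosl by 0.84 ± 0.25 (edgeR adjusted p = 0.0159). Icosl rose in Mdr2-/- over wild-type tumour-bearing livers (0.93 ± 0.17, edgeR adjusted p = 0.000918).

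Within groups the 9 genes rose and fell together from library to library. Each gene's deviation from its group mean of log2 CPM was compared with that of H2-Aa, H2-Ab1, H2-Eb1 and Cd74 averaged (leaving the gene itself out), over 24 libraries, where all genes of a library share its depth. Pearson's r was 0.91 for H2-Ab1, 0.88 for H2-DMa, 0.82 for Ctss and for H2-Aa, 0.78 for H2-DMb2, 0.75 for Cd74 and 0.74 for H2-DMb1. It was lower for Ciita (0.66) and for H2-Eb1 (0.61). Wild-type tumour-bearing replicate 3 (0.78 from its group mean) and Mdr2-/- tumour-bearing replicate 1 (-0.50) were the libraries farthest from the median, and without them r was 0.54 to 0.89.

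Of 13736 genes compared, the 8 outside the set with the highest r were Fxyd5 (0.88), Rassf1 (0.84), Epsti1 (0.84), H2-D1 (0.82), Evl (0.81), Parvg (0.81), Cdk1 (0.79) and Tmem173 (0.79). H2-D1 is a class I heavy chain and was abundant at a mean of 685 CPM, and Tmem173 encodes the DNA sensor adaptor STING. The other 7 averaged 3.65 to 8.15 CPM. Without the 2 farthest libraries r was 0.82 for Fxyd5, 0.77 for H2-D1 and 0.68 for Cdk1. These values describe the 24 libraries and carry no test.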

How the data were processed

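Mouse liver RNA was sequenced as read pairs after ribosomal RNA had been removed, per the labels' protocols. The authors deposited raw counts per gene and TPM values for the same libraries. The submitters' processing notes name DESeq2 and the build mm39. Aligner, counter, annotation and strand setting were not given in the sources used here, so antisense reads cannot be told apart.

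The 24 libraries formed 4 groups of 6 by treatment label. Of 49315 genes, 174 had no symbol. The main test on counts was edgeR 4.0.16 under R 4.3.3 (filterByExpr with a minimum count of 10, TMM, glmQLFit robust, glmQLFTest, 2-sided, 1 mean per group), which kept 17216 genes and 99.8 to 99.9% of counts. A gene was called at an adjusted p under 0.05 over all tested genes. At 1 CPM a gene rests on 16.4 to 34.2 counts, and the biological coefficient of variation was 0.272. Simulated counts were made for the wild-type tumour comparison alone (15509 genes). A fit of those libraries without the Mdr2-/- groups recovered 58 of 100 changes of 2-fold and 96 of 100 changes of 4-fold, with 10 false calls. Recovery by the model of all 24 libraries was not simulated.

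Ratios of TPM were tested by exact permutation in scipy 1.17.1. Alternatives were DESeq2 1.42.0, limma 3.58.1 on log2(TPM + 1) and log2(TPM + 0.1), other scalings and filters, covariates, and each library left out. The genes named are the 9, those of fixed pathway and marker lists (up to 4 called per list with the largest change, H2-Oa and H2-Ob always), and the 8 most alike by r at 1 CPM or more. The 9 genes and the lists were chosen with earlier results of these data known. The calls of 1 gene of the interferon gamma list are not reported here.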

Additional observations from a re-analysis of the deposited data

Results flagged for a closer look

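In wild-type tumour-bearing livers, replicate 3 stood far above the other 5 libraries for 3 of the 9 genes, at 252 CPM for H2-Aa, 11.2 CPM for H2-DMa and 6.28 CPM for H2-DMb1, by the gap to the nearest library against the range of the group. In Mdr2-/- controls, replicate 4 stood above the other 5 for Ctss at 104 CPM. These are 4 of 36 combinations of a gene and a group, where chance flags about 1 in 20 of such combinations. The genes varied together between libraries and 3 of the flags fell on 1 library. The 36 are therefore not independent, and their share cannot be set against chance.

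The tumour effect on Ctss differed between genotypes by the test of the difference itself, at -0.81 on the log2 scale (Mdr2-/- minus wild type, edgeR adjusted p = 0.0142).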

How the results depend on the processing

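All 9 genes were called for genotype in controls, and Ctss for the difference of tumour effects, in every alternative run (8 of 8 genes where the DM beta genes were summed) and without any 1 library. For tumours in wild type, 5 genes were called, and 3 with DESeq2 size factors or no filter, 9 with total library size, 8 with limma on TPM at either pseudocount, 2 with only the 12 libraries compared and 1 with the title number range as a covariate. That count was 7 with DESeq2, 6 with upper-quartile factors and 4 with the nuclear RNA share as a covariate. For tumours in Mdr2-/-, 0 were called, and 3 with total library size, 2 with upper-quartile factors or only the 12 libraries, and 1 with a stricter filter, DESeq2 or limma on log2(TPM + 1). For genotype in tumour-bearing livers, 8 were called, and 4 with only the 12 libraries, 6 with no filter and 7 with the title number range as a covariate. All 9 were called with total library size or limma on TPM at either pseudocount. Over the 24 fits that leave out 1 library, the counts ranged from 1 to 8, 0 to 2 and 4 to 8 for these 3 comparisons, from 9 to 9 for genotype in controls, from 1 to 1 for the difference and from 0 to 6 for the ratios (6 called), where 5 against 6 libraries allow fewer splits. Ratios were also tested on CPM and without the 2 libraries that stood apart on the principal components. The DM beta genes to H2-DMa for tumours in Mdr2-/- lost the call in 1 of these 2 runs. Ctss to the chains between tumour-bearing livers also lost it in 1. H2-Aa to H2-Ab1 for tumours in Mdr2-/- gained a call in 1, and the other called ratios kept theirs. The cause of the other shifts was not tested. Total library size moved the median of all genes by 0.24 to 0.30 on the log2 scale (-0.06 for the difference), and limma on log2(TPM + 0.1) by up to 0.42. With the sum of H2-DMb1 and H2-DMb2 in their place, 0, 4, 1, 8 and 7 of 8 genes were called for tumours in Mdr2-/-, tumours in wild type, the difference, genotype in controls and genotype in tumour-bearing livers.

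Signs turned for uncalled values alone. For tumours in Mdr2-/-, Cd74 turned to 0.21 (total library size), 0.058 (upper-quartile), 0.0096 (stricter filter), 0.28 (nuclear RNA share as a covariate) and 0.076 (without the 2 libraries apart), Ctss to 0.13 (total library size), H2-DMa to -0.19 (nuclear RNA share), H2-Eb1 to -0.0091 (no filter), and Ciita to -0.045 (no filter) and -0.0029 (title number range). With 1 library left out, the values for tumours in Mdr2-/- ranged from -0.20 to 0.075 for Cd74, -0.0020 to 0.19 for H2-DMa, -0.0090 to 0.24 for H2-Eb1 and -0.047 to 0.14 for Ciita, and those of the difference from -0.24 to 0.093 for H2-Aa, -0.28 to 0.091 for H2-DMb1 and -0.24 to 0.11 for H2-DMb2. Without the 2 libraries apart, the ratio of H2-Eb1 to H2-Ab1 for tumours in wild type turned to -0.014 and that of Ciita to the chains between tumour-bearing livers to 0.12. With 1 library left out these ranged from -0.11 to 0.16 and from -0.13 to 0.12, Cd74 to the chains from -0.17 to 0.055 for tumours in wild type and from -0.042 to 0.17 between tumour-bearing livers, and Ciita to the chains from -0.048 to 0.21 for genotype in controls. No paired analysis was possible because the labels give no replicate numbers that pair libraries. H2-Eb1, Ciita and the DM beta genes rest on few counts, which limits their precision.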
